A study of Mus musculus with 48 samples.

Results

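The genes described here are the matrix metalloproteinases (MMPs), the tissue inhibitors of metalloproteinases (TIMPs) and the ADAMTS proteases, taken as every gene identifier of the count files whose mouse symbol begins with Mmp, Timp or Adamts followed by a digit. The rule gave 46 genes of 56748 identifiers, of which 23 were MMPs, 4 TIMPs and 19 ADAMTS genes. Bulk RNA sequencing had been done on 3 tissues of male littermate mice that were hepAGT+/+ (WT) or hepAGT-/- (KO, a hepatocyte deletion of the angiotensinogen gene Agt), all of them kept for 12 weeks on a Western diet (milk fat 21%, cholesterol 0.2%). Housing was either at 20 to 22 °C, called room temperature (RT), or at 30 °C, called thermoneutral (TN), the temperature at which a mouse needs no extra heat production. RNA came from liver, from brown fat (brown adipose tissue, BAT) and from the white fat beside the epididymis (eWAT), which with genotype and housing gave 12 groups of 4 libraries from 23 numbered animals. The labels name neither the promoter that drove the deletion nor the age of the mice, and no group was on another diet.

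MMPs are zinc enzymes that cut collagens, elastin and other proteins of the extracellular matrix, and most are secreted as inactive proenzymes or anchored in the cell membrane. ADAMTS proteases are secreted relatives that cut proteoglycans such as versican and aggrecan, trim procollagens, or cut von Willebrand factor. TIMPs bind the active site of MMPs, and TIMP3 also binds ADAMTS enzymes. In adipose tissue these families are known for remodelling the matrix around adipocytes as the tissue expands, and in liver for matrix turnover in fibrosis.

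Levels are in CPM, each library's counts brought to a common total of 1000000, and were scaled by TMM, a correction for differences in RNA composition between libraries. Total counts per library ran from 23711728 to 36503849 in liver, 25304872 to 39383039 in BAT and 28656921 to 43687848 in eWAT. Agt in liver was 368 ± 75.5 CPM (SD, n = 4) in WT against 167 ± 26.7 in KO at RT, and 410 ± 86.5 and 167 ± 33.8 CPM at TN (log2 differences -1.14 and -1.29, adjusted p = 0.0096 and 0.00113). The genotypes did not overlap, and liver of KO mice kept a large share of its Agt RNA. Each tissue held its own markers: hepatocyte markers summed to at least 63406 CPM in every liver library, brown adipocyte markers to at least 2319 CPM in every BAT library, and adipocyte markers to at least 18011 CPM in every eWAT library. Hepatocyte markers also summed to 13.2 to 2422 CPM in BAT libraries and 648 to 6667 CPM in eWAT libraries. The 2422 CPM was in BAT KO TN library 2, whose brown adipocyte markers summed to 2319 CPM. The part of hepatocyte RNA in the fat values was not tested. Of the BAT libraries, 5 had over 1000 CPM of skeletal muscle markers (KO RT libraries 14 and 19, WT TN libraries 6 and 24, KO TN library 2). These muscle-rich libraries are left out in an alternative that is named beside the BAT calls it ends. In eWAT, WT RT library 18 had 1221 CPM of epididymis markers.

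The genes are spread over the genome, except that 10 MMP genes (Mmp13, Mmp12, Mmp1b, Mmp3, Mmp1a, Mmp10, Mmp8, Mmp27, Mmp20 and Mmp7) lie in one stretch of 427 kb on chromosome 9, chr9:7272514-7699585 (GRCm38, GENCODE M21). Adamts1 and Adamts5 are neighbours on chromosome 16 with 53.1 kb between them, and Timp1, Timp3 and Timp4 each lie inside a synapsin gene (Syn1, Syn3 and Syn2). RefSeq promoter windows (GRCm38.p6, 250 bases before to 50 after a start) were found for 32 of the 46 genes, 35 windows in all. A gene was counted for a motif if any of its windows held it. The AP-1 motif TGANTCA, searched on both strands, was in the windows of 8 of the 10 genes of the chromosome 9 stretch and in 0 of the other 22 genes with a window, against 7.81% of all 32851 windows. All 8 also had the TATA motif TATAAA on the gene's strand, which 8.32% of all windows had, and 1.54% of all windows had both motifs. These shares are per window and not per gene, and Mmp12 and Mmp7 each had another window with neither motif. Among the other 22 genes, TATAAA was in 2 windows, those of Mmp21 and Adamts1. The last 100 bases before the start are shown, with TGANTCA and TATAAA in capitals, for 4 genes of the stretch and for 2 genes elsewhere whose levels are described later:
Mmp3 (chr9:7445722-7445821, + strand): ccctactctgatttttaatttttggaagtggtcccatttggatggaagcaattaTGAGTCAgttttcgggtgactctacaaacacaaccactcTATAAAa
Mmp12 (chr9:7347274-7347373, + strand): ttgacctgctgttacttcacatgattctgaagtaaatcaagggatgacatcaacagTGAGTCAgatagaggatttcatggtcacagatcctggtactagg
Mmp13 (chr9:7272414-7272513, + strand): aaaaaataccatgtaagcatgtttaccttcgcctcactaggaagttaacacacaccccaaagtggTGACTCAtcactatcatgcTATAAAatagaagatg
Mmp7 (chr9:7691990-7692089, + strand): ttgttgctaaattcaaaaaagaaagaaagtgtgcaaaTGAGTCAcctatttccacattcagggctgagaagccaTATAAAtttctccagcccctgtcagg
Mmp14 (chr14:54431498-54431597, + strand): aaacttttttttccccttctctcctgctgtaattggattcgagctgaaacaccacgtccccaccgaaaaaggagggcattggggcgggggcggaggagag
Timp2 (chr11:118355412-118355511, - strand): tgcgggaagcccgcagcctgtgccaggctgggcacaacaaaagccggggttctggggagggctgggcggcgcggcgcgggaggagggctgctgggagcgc
The motif TGAGTCA or TGACTCA stands within 100 bases of the start in the 4 sequences of the stretch, and neither motif is in the windows of Mmp14 and Timp2. In Mmp12 the TATAAA match begins just after the start shown. A match is a run of letters and no evidence of a bound factor.

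Of the 46 genes, 30 passed the filter on low counts in liver (14 MMPs, 3 TIMPs and 13 ADAMTS genes), 34 in BAT (14, 4 and 16) and 35 in eWAT (16, 4 and 15). Passing in all 3 tissues were 27 genes, 6 passed in 2 tissues, 6 in 1, and 7 in none. Those that passed nowhere were Mmp1a, Mmp1b, Mmp8, Mmp10, Mmp16, Mmp20 and Mmp21, and Mmp1b and Mmp20 had 0 counts in every library. Mmp1b, Mmp1a, Mmp10, Mmp8 and Mmp20, which are among these 7, all belong to the chromosome 9 stretch, whose other 5 genes (Mmp3, Mmp7, Mmp12, Mmp13 and Mmp27) passed in at least 1 tissue.

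**Figure D1:**
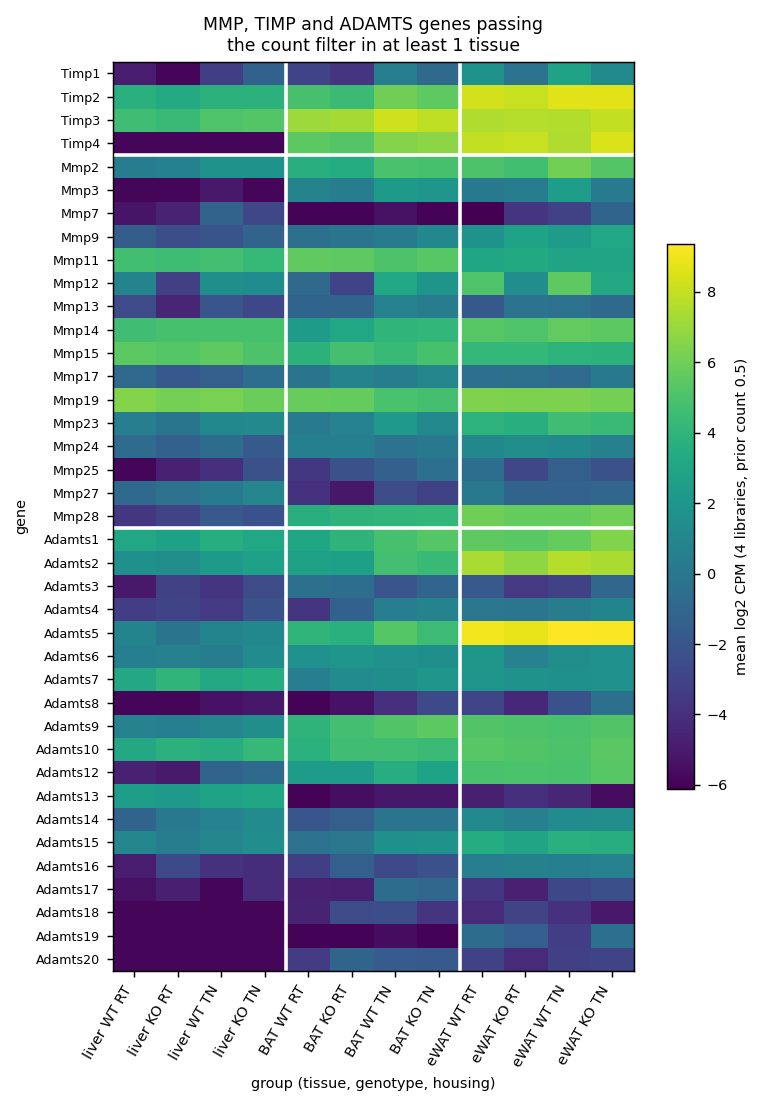
Mean log2 CPM (colour, 4 libraries a group, prior count 0.5, scaled within each tissue) of the 39 genes that passed the count filter in at least 1 tissue, by tissue, genotype and housing. Timp2, Timp4, Adamts2 and Adamts5 are brightest in the 4 eWAT columns, while Timp4 is at the floor of the scale in all liver columns.

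Per kilobase of exon, with all 48 libraries scaled together, the highest gene in each fat depot was a TIMP. Timp1 was far lower, at 0.731 CPM per kb in BAT and 3.67 in eWAT. In eWAT the highest were Timp2 at 72.5 CPM per kb, Adamts5 at 43.5, Timp4 at 37.5 and Timp3 at 20.7. In BAT the highest were Timp3 at 28.2 CPM per kb, Mmp11 at 16.5, Timp4 at 12.9 and Mmp19 at 12.7. In liver the order began with Mmp19 at 24.7 CPM per kb, Mmp11 at 10.3 and Mmp15 at 8.76, and Timp3 reached 4.29. Mmp19 is a secreted MMP of many tissues, Mmp15 a membrane-anchored one, and Mmp11 (stromelysin-3) one that is activated inside the cell by furin-type proteases.

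Levels of single genes differed widely between tissues. In the fit of all 48 libraries, which 40 of the 46 genes entered, 33 differed between BAT and liver (25 higher and 8 lower in BAT, against 68.6% of all genes called, 37.0% higher and 31.6% lower), 32 between eWAT and liver (26 higher and 6 lower in eWAT, background 73.8%, 38.3% and 35.5%) and 28 between BAT and eWAT (7 higher and 21 lower in BAT, background 60.3%, 29.2% and 31.1%). These calls, like the others below, are edgeR quasi-likelihood tests with Benjamini-Hochberg adjustment over all genes at 0.05. By mean CPM, 21 genes were highest in eWAT, 13 in BAT and 6 in liver (Mmp8, Mmp15, Mmp19, Mmp27, Adamts7 and Adamts13). With the animal as a block the BAT to eWAT count was 22, and 11104 of all genes were called where 13204 were called without it.

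Timp4, the TIMP best known from heart and fat, had 0 counts in all 16 liver libraries, 32 to 184 CPM in BAT and 99.5 to 333 CPM in eWAT. Against a floor of 3 counts in a liver library its mean was 484-fold higher in BAT and 1410-fold higher in eWAT. Adamts5, a proteoglycanase that cuts versican and aggrecan, averaged 2.24 CPM in liver, 24.7 in BAT and 469 in eWAT, a log2 difference of 7.75 ± 0.24 (SE) between eWAT and liver (adjusted p = 2.26e-27). Adamts2, which removes the N-propeptide of procollagens, followed the same order with 5.78, 16.1 and 131 CPM. The epilysin gene Mmp28 averaged 0.366 CPM in liver, 17.2 in BAT and 48.8 in eWAT, a log2 difference of 7.20 ± 0.30 between eWAT and liver (adjusted p = 2.28e-23). Mmp3 (stromelysin-1), with 6 counts in 1 of 16 liver libraries, averaged 3.47 CPM in BAT and 3.18 CPM in eWAT.

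Adamts13, the protease that cuts von Willebrand factor and is made by hepatic stellate cells, went the other way. It averaged 7.8 CPM in liver, with 13 counts over all BAT libraries and 36 over all eWAT libraries, and differed from liver by -8.70 ± 0.57 in BAT and by -7.42 ± 0.50 in eWAT on the log2 scale as fitted (adjusted p = 4.22e-17 and 6.44e-17). Mmp11 was 45.9 CPM in BAT and 6.69 CPM in eWAT, a log2 difference of 2.77 ± 0.11 (adjusted p = 2.30e-24). Mmp27 averaged 1.52 CPM in liver, 0.134 in BAT and 0.543 in eWAT. Adamts17, Adamts18 and Adamts20 passed the filter in BAT alone, each below 1 CPM on average, and Adamts8 and Adamts19 in eWAT alone. Adamts7, which like Adamts12 cuts cartilage oligomeric matrix protein, was 14.2 CPM in liver and 2.98 CPM in eWAT (log2 difference -2.22 ± 0.23, adjusted p = 1.08e-11). Adamts20 was higher in BAT than in eWAT by 2.12 ± 0.70 (adjusted p = 0.00983), a call that was lost with the animal as a block (0.369), and Adamts19 was lower in BAT (fitted log2 difference -6.23 ± 0.80, adjusted p = 5.29e-07). The matrilysin gene Mmp7 was lower in BAT than in liver (log2 difference -4.63 ± 1.77, adjusted p = 0.0223), but the call was lost without liver WT RT library 18. Between BAT and eWAT the fit gave Mmp7 no usable standard error.

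In BAT housing changed many of these genes. At TN against RT, 18 of the 34 tested genes changed in WT (16 rose, 2 fell), which is 52.9% against 32.5% of all genes tested, or 15.9% rising and 16.7% falling. In KO 14 of 34 changed (13 rose, 1 fell), 41.2% against 15.2% of all genes, or 6.64% rising and 8.52% falling. The median log2 change of the 34 genes was 1.172 in WT and 0.696 in KO, and that of all genes was 0.112 and 0.040. Changed in both genotypes were 13 genes: the 4 TIMPs, Mmp2, Mmp3, Mmp12, Mmp14, Mmp19, Adamts1, Adamts2, Adamts5 and Adamts15. The genotype by housing interaction was called for 0 of 34 genes (edgeR, background 0%; 0 at an unadjusted p under 0.05 against 10.2% of all genes, and 0 by DESeq2), so a call in only 1 genotype is not shown to differ between them.

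**Figure D2:**
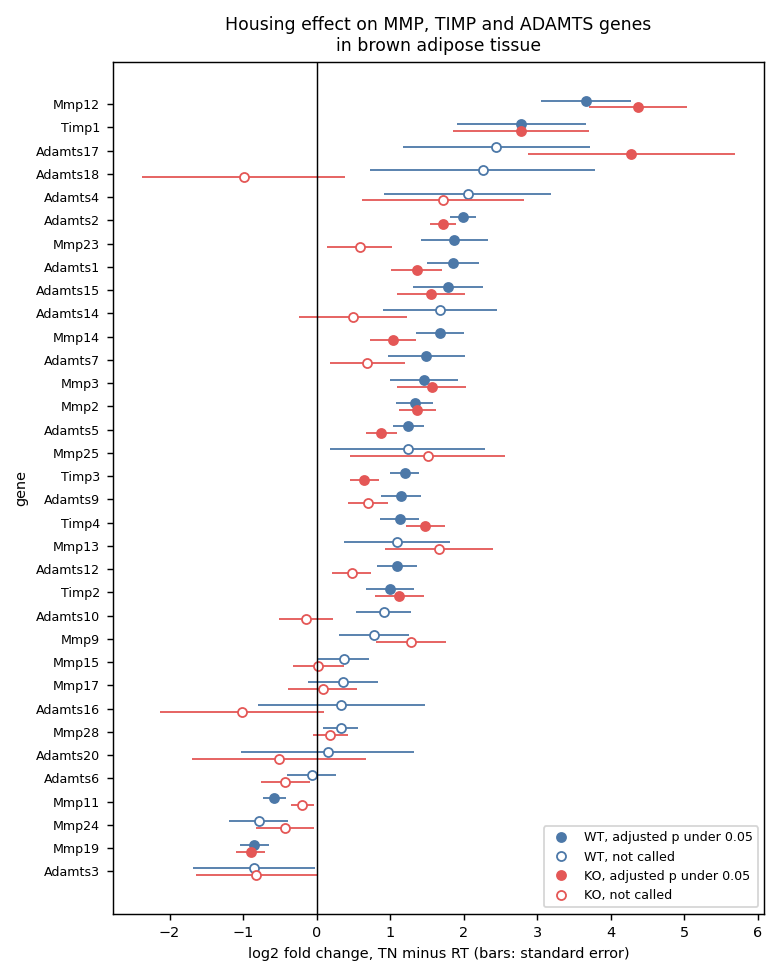
Log2 fold change in BAT at TN against RT for the 34 tested genes, in WT (blue) and KO (red), with standard errors; filled points passed an adjusted p of 0.05. Most points lie right of 0, led by Mmp12 at 3.66 in WT and 4.37 in KO, and Mmp19 and Mmp11 are the called genes on the left.

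All 4 inhibitors were higher in BAT at TN. Timp3, the matrix-bound inhibitor, was 131, 130, 141 and 148 CPM in the WT RT libraries and 421, 304, 304 and 235 CPM at TN. Those groups did not overlap, and the log2 change was 1.20 ± 0.20 (SE, adjusted p = 0.000209). In KO, Timp3 was 174, 129, 162 and 164 CPM at RT and 278, 161, 312 and 237 CPM at TN, with overlap through the second TN library and a log2 change of 0.65 ± 0.19 (adjusted p = 0.0296). That KO call was lost in 6 of the alternatives, namely leaving out KO RT library 10, 14 or 19, KO TN library 2 or 4, or the muscle-rich libraries (adjusted p = 0.117).

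Timp4 was 48.4, 42.1, 49.8 and 35.7 CPM in WT at RT and 169, 77.7, 68.5 and 70.3 CPM at TN. The first TN library stood far above the other 3, and without it the log2 change was 0.73 against 1.13 ± 0.26 with it (adjusted p = 0.00364 with it, called in each alternative). In KO, Timp4 rose from 47.4, 31.4, 40.9 and 30.3 CPM to 130, 75.3, 109 and 104 CPM, a log2 change of 1.48 ± 0.27 (adjusted p = 0.00133), with no overlap. Timp2, which both inhibits MMP2 and takes part in its activation at the cell surface, rose from 32.1 ± 15.8 to 64.3 ± 8.95 CPM (SD, n = 4) in WT and from 22.5 ± 6.39 to 49.1 ± 20.1 CPM in KO. The WT groups overlapped through RT library 15 at 53.5 CPM, and both Timp2 calls (adjusted p = 0.0302 and 0.0315) were lost in 7 alternatives each, with an adjusted p of up to 0.104 in WT and 0.15 in KO, both without the muscle-rich libraries.

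Timp1, the inducible inhibitor, was low throughout BAT. In WT it went from 0.136, 0.536, 0.16 and 0 CPM at RT to 0.749, 2.13, 1.58 and 1.53 CPM at TN, which is 21 to 79 counts a library at TN. The log2 change was 2.79 ± 0.88 in WT (adjusted p = 0.0212) and 2.78 ± 0.92 in KO (adjusted p = 0.0486). The KO call rested on 0 to 6 counts a library at RT and was lost in 13 alternatives, among them the one without the muscle-rich libraries, with an adjusted p of up to 0.117 without KO RT library 19, and the WT call was lost without WT TN library 6 or WT RT library 17 and, at 0.104, without the muscle-rich libraries.

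Mmp12, the macrophage elastase, had the largest called rise among the MMPs in both genotypes. It was 0.542, 1.04, 0.16 and 1.2 CPM in WT at RT and 6.67, 15.5, 8.04 and 6.96 CPM at TN, a log2 change of 3.66 ± 0.61 (adjusted p = 0.000268). In KO it was 0, 0.307, 0.294 and 0.133 CPM at RT and 4.72, 4.19, 2.96 and 3.54 CPM at TN, a log2 change of 4.37 ± 0.66 (adjusted p = 0.000301). The groups did not overlap in either genotype, and the calls held in each alternative.

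The gelatinase gene Mmp2 was 10.4, 14.2, 14.2 and 11.5 CPM in WT at RT and 25.2, 40.8, 37.7 and 23.4 CPM at TN. In KO it was 8.29, 8.52, 12.8 and 17.1 CPM at RT and 33.3, 21.7, 26.8 and 38.9 CPM at TN. The log2 changes were 1.34 ± 0.25 and 1.37 ± 0.25 (adjusted p = 0.000586 and 0.00118), without overlap and called in each alternative. Mmp14, the membrane-anchored MMP that activates proMMP2, rose from 5.44 ± 1.07 to 17.4 ± 6.86 CPM (SD, n = 4) in WT, a log2 change of 1.68 ± 0.32 (adjusted p = 0.000859). In KO it went from 9.13 ± 1.86 to 18.8 ± 8.49 CPM, a log2 change of 1.04 ± 0.32 (adjusted p = 0.0331), and leaving out KO TN library 2, at 31.2 CPM, or KO RT library 10, 14 or 19 ended that call, as did leaving out the muscle-rich libraries (adjusted p = 0.22).

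Mmp3 rose from 1.96 ± 1.03 to 5.39 ± 2.12 CPM (SD, n = 4) in WT and from 1.41 ± 0.679 to 4.18 ± 1.74 CPM in KO, log2 changes of 1.46 ± 0.46 and 1.57 ± 0.47 (adjusted p = 0.0213 and 0.0284). Leaving out WT RT library 12 or 17 or WT TN library 24 ended the WT call, and leaving out KO RT library 9, 14 or 19 or KO TN library 2 or 5 ended the KO call. Without the muscle-rich libraries neither call held (adjusted p = 0.0864 in WT and 0.246 in KO). Mmp23, a membrane-linked MMP shed by furin cleavage, rose in WT from 1.3 ± 0.367 to 4.79 ± 1.2 CPM (log2 change 1.87 ± 0.45, adjusted p = 0.00419), and in KO was 1.81 ± 0.756 and 2.71 ± 1.65 CPM (0.58 ± 0.44, adjusted p = 0.44). The gelatinase gene Mmp9, Mmp13 and the membrane-anchored Mmp15 were called in neither genotype, with log2 changes of 0.78, 1.09 and 0.37 in WT and of 1.29, 1.66 and 0.02 in KO.

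Mmp19 and Mmp11 fell. Mmp19 was 47.5, 57.6, 56.5 and 62.9 CPM in WT at RT and 27.2, 24, 25.7 and 47.7 CPM at TN, where the last TN library lay inside the RT range. In KO it was 50.2, 60.7, 48.8 and 49.4 CPM at RT and 24.4, 36.8, 23.4 and 27.7 CPM at TN, without overlap. The log2 changes were -0.85 ± 0.20 and -0.90 ± 0.20 (adjusted p = 0.00307 and 0.00463), called in each alternative. Mmp11 went from 49.9 ± 9.6 to 33.5 ± 5.45 CPM in WT, a log2 change of -0.57 ± 0.15 (adjusted p = 0.00747), and was 47.2 ± 3.04 and 41.3 ± 5.52 CPM in KO (-0.19 ± 0.15, adjusted p = 0.464).

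Genes on the opposite strand share exon bases with 13 of the 46 genes, and the strand setting of the counting is not given, so reads could be assigned across such pairs. Chchd10, a mitochondrial protein gene that overlaps Mmp11, was at 656 ± 113 CPM in WT at RT and 405 ± 29.4 CPM at TN, a log2 change of -0.70 (adjusted p = 0.00383), which is the direction of Mmp11. Tmem198b, which overlaps Mmp19, was 6.62 ± 1.69 and 8.74 ± 1.9 CPM in WT, below Mmp19 and not called (adjusted p = 0.143). Syn3, around Timp3, was called higher in both genotypes but at 4.51 and 3.64 CPM at RT and 8.05 and 8.33 CPM at TN, far under Timp3. Tbc1d2b, which overlaps Adamts7, was also called higher in WT (log2 change 0.88, adjusted p = 0.0039). The part of these neighbours in the values of the 13 genes was not tested.

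**Figure D3:**
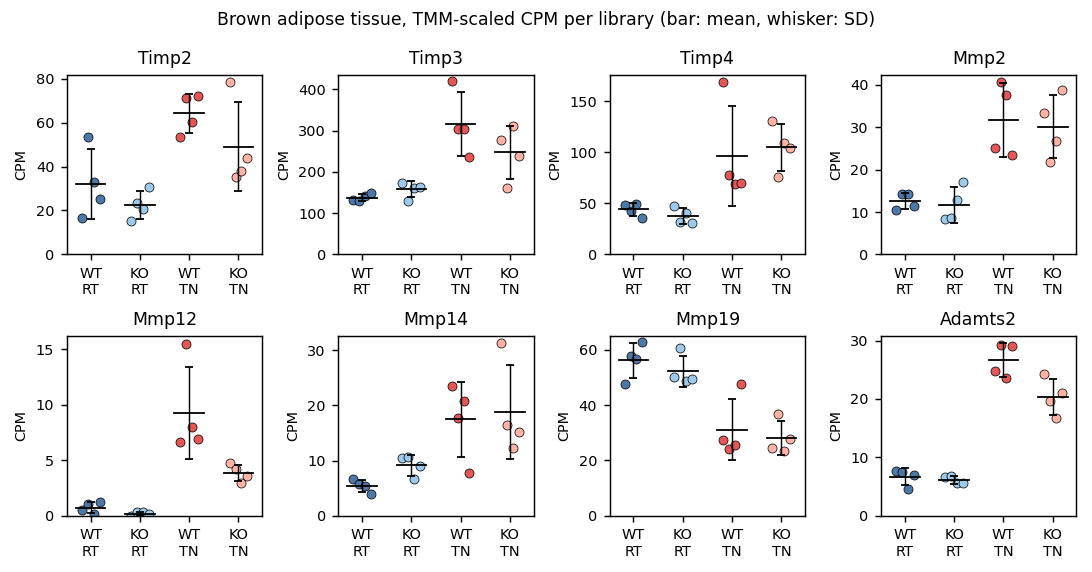
CPM per library in BAT for 8 genes by genotype and housing (points, 4 libraries a group; bars, mean; whiskers, SD). Adamts2, Mmp2 and Mmp12 separate TN from RT in both genotypes, Mmp19 goes down apart from 1 WT TN library at 47.7 CPM, and Timp4 has 1 WT TN library at 169 CPM.

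Among the ADAMTS genes Adamts2 had the smallest error. It was 7.66, 7.44, 4.64 and 7.04 CPM in WT at RT and 24.7, 29.3, 23.6 and 29 CPM at TN, and in KO 6.69, 6.85, 5.54 and 5.61 CPM at RT and 24.2, 19.6, 16.8 and 21 CPM at TN. The groups lay well apart, with log2 changes of 1.99 ± 0.18 (adjusted p = 1.10e-06) and 1.72 ± 0.18 (adjusted p = 6.93e-06). Its relatives Adamts3 and Adamts14, also procollagen N-proteinases, were not called in either genotype, at log2 changes of -0.85 and 1.68 in WT and -0.82 and 0.50 in KO.

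Among Adamts1, Adamts4, Adamts5, Adamts9 and Adamts15, whose enzymes cut versican or aggrecan, Adamts4 was called in neither genotype and Adamts9 in WT. Adamts1, Adamts5 and Adamts15 were called in both genotypes, and no KO call among them held without the muscle-rich libraries. Adamts1 was 8.42 ± 3.41 CPM in WT at RT and 30.5 ± 8.96 CPM at TN, a rise of 1.86 ± 0.36 on the log2 scale (adjusted p = 0.00113), and 16.4 ± 5.5 and 42.1 ± 20 CPM in KO (1.36 ± 0.35, adjusted p = 0.015, lost without KO RT library 10 and, at 0.177, without the muscle-rich libraries). Adamts5 was 13.1, 18.8, 16.2 and 16.7 CPM in WT at RT and 39.3, 34.2, 44.1 and 36.4 CPM at TN, a log2 change of 1.25 ± 0.21 (adjusted p = 0.00029). In KO, Adamts5 was 13.1, 16.4, 9.8 and 13.3 CPM at RT and 34.2, 24.3, 14.2 and 24.3 CPM at TN, a log2 change of 0.88 ± 0.21 (adjusted p = 0.00843). Only the third KO TN library overlapped the RT range, and without the muscle-rich libraries the KO call was lost (adjusted p = 0.212).

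Adamts15 rose by 1.79 ± 0.47 in WT and 1.56 ± 0.46 in KO on the log2 scale (adjusted p = 0.00712 and 0.0288), the KO call being lost without KO RT library 14 or 19 or KO TN library 2 or 5 and, at 0.411, without the muscle-rich libraries. Adamts9 rose in WT from 16.3 ± 5.79 to 36 ± 9.24 CPM (1.14 ± 0.27, adjusted p = 0.00404) and was 27.5 ± 8.05 and 44.7 ± 13.8 CPM in KO (0.70 ± 0.27, adjusted p = 0.0905). Adamts4, at under 3 CPM in every group mean, had log2 changes of 2.06 ± 1.14 and 1.72 ± 1.10, neither of them called. Adamts12 rose in WT by 1.09 ± 0.27 (adjusted p = 0.00506) and Adamts7 by 1.49 ± 0.52 (adjusted p = 0.036), and the Adamts7 call was lost without any 1 of the 4 WT RT libraries or WT TN library 1, 6 or 7, with an adjusted p of up to 0.11. Adamts17 was called in KO (adjusted p = 0.0467) on 0, 0, 2 and 2 counts at RT and 35, 2, 46 and 26 at TN, and the call was lost in 11 alternatives (adjusted p = 0.143 without the muscle-rich libraries).

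Without the 5 libraries rich in skeletal muscle markers, 15 of 34 genes changed in WT (13 rose, 2 fell, with 4 RT and 2 TN libraries) and 5 in KO (4 rose, 1 fell, with 2 RT and 3 TN libraries). Over all genes the calls went from 5867 to 5137 in WT and from 2735 to 1293 in KO. Leaving out any 1 of KO RT libraries 10, 14 and 19 or KO TN library 2 brought the KO count from 14 to 8. Counts over all genes in those fits are not given here. Adamts2, Mmp2, Mmp12, Timp4 and Mmp19 were called in both genotypes in each alternative tried.

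Other matrix genes were also called. From a list of 47 partners (activators, other proteases and inhibitors, and matrix substrates) 45 were tested in BAT, and 33 changed in WT at TN (32 rose, 1 fell) and 22 in KO (20 rose, 2 fell), against 32.5% and 15.2% of all genes. Among activators and the plasminogen system, Plau (urokinase) rose from 14.2 ± 2.9 to 35.8 ± 8.91 CPM in WT and from 13.2 ± 1.28 to 29.9 ± 6.17 CPM in KO. Of the substrates, Col1a1 rose by 1.89 in WT and 1.46 in KO and Col3a1 by 1.87 and 1.81. Bsg (basigin, an inducer of MMPs) fell by 1.04 and 1.29 and Adam12 fell by 0.98 in KO, while the interaction was called for 0 of the 45 partners (edgeR, 6 at an unadjusted p under 0.05; DESeq2 called 21 of all genes for it). Reck, a membrane-bound MMP inhibitor, rose in WT (1.08 ± 0.39, adjusted p = 0.0422).

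Cell type markers moved in the same comparison. Of 10 macrophage markers 8 were called higher at TN in both genotypes, and their summed level went from 22.6 to 64.3 CPM at RT to 88.8 to 149 CPM at TN in WT, and from 29.3 to 33.8 CPM to 68.3 to 89.1 CPM in KO. Of 8 fibroblast and adipocyte progenitor markers 5 were called higher in both genotypes, with sums of 557 to 1271 CPM at RT and 1618 to 2361 CPM at TN in WT, and 562 to 665 CPM and 1171 to 2344 CPM in KO. Of 6 endothelial markers 4 were called higher in WT and 0 in KO. Of 6 brown adipocyte markers 4 were called lower in both genotypes, and their sums fell from 7485 to 15524 CPM to 2488 to 6384 CPM in WT. No marker of the macrophage, fibroblast or brown adipocyte lists was at 0 in a BAT group, whereas Ly6g, which defines neutrophils, was at 0 in 2 of the 4 groups, WT RT and KO TN. In bulk RNA, more or fewer cells of a type cannot be told apart from more or less RNA per cell, and the part of these markers in the housing result was not tested.

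Between genotypes, BAT gave no called gene. At RT 0 of 34 genes were called (edgeR, background 0.0887%, and 5 at an unadjusted p under 0.05 against 19.4% of all genes, 1 by DESeq2), and at TN 0 of 34 (background 0%, 4 unadjusted against 5.24%, 0 by DESeq2). Of all genes, DESeq2 called 961 at RT and 20 at TN. At RT Mmp12 was 0.183 ± 0.146 CPM in KO and 0.735 ± 0.474 CPM in WT (log2 difference -1.98 ± 0.65, adjusted p = 0.129, DESeq2 adjusted p = 0.019). Adamts1, Adamts9, Mmp14 and Mmp15 had log2 differences of 0.96, 0.75, 0.74 and 0.85 with adjusted p from 0.156 to 0.215. Without BAT WT RT library 12, in a fit whose count over all genes is not given here, the count at RT was 5. Without the muscle-rich libraries it was 2 (Mmp14 and Adamts9, with adjusted p of 0.0416 and 0.0401), with 434 of all genes called. Of the 6 endothelial markers 0 were called at RT, and their sums overlapped, at 420 to 966 CPM in KO and 188 to 462 CPM in WT. The part of these markers in the values above was not tested.

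In eWAT the genotypes differed in few of these genes. At RT 2 of 35 tested genes differed, both lower in KO, against 4.34% of all genes tested (1.20% higher, 3.13% lower), a share near the background. Mmp12 was 20.7, 36.3, 38.8 and 49.2 CPM in WT and 6.28, 2.96, 5.36 and 0.615 CPM in KO, with no overlap and a log2 difference of -3.24 ± 0.69 (adjusted p = 0.0216). Adamts2 was 154, 154, 161 and 216 CPM in WT and 114, 98.7, 105 and 125 CPM in KO, a log2 difference of -0.63 ± 0.14 (adjusted p = 0.0177). Both calls were lost without WT RT library 18 and without KO RT library 10, each of which brought the count to 0, and Adamts2 then had an adjusted p of up to 0.0938 and Mmp12 of up to 0.0688. Over the fits without 1 library the log2 difference stayed between -3.58 and -2.89 for Mmp12 and between -0.69 and -0.47 for Adamts2. WT RT library 18 is the one with epididymis markers, whose part in these values was not tested.

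Timp1 was near that line. It was 1.69, 6.66, 1.86 and 6.81 CPM in eWAT of WT at RT and 1.01, 1.46, 0.782 and 0.41 CPM in KO, a log2 difference of -2.21 ± 0.63 (adjusted p = 0.0598, and 0.00388 by DESeq2). The other TIMPs were close between genotypes at RT, with Timp2 at 319 ± 36.8 CPM in WT against 276 ± 61.7 in KO and Timp4 at 247 ± 34.9 and 280 ± 62.3 CPM. Mmp9 was higher in KO by 1.02 ± 0.43 on the log2 scale (7.23 against 3.55 CPM), which was not called (adjusted p = 0.213). DESeq2 called 5 genes in this comparison, and 1501 of all genes.

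At TN 0 of 35 genes were called between genotypes in eWAT (edgeR, background 0.586%, and 7 at an unadjusted p under 0.05 against 13.7% of all genes, 4 by DESeq2). Of all genes, DESeq2 called 680. Mmp12 was 120, 76.7, 23.9 and 19.7 CPM in WT and 9.29, 11.5, 6.93 and 11.3 CPM in KO, again without overlap, with a log2 difference of -2.62 ± 0.66 (adjusted p = 0.0884, and 0.00305 by DESeq2). Mmp2 was 59.4, 59.5, 126 and 45.5 CPM in WT and 29.9, 38.9, 41.4 and 39.4 CPM in KO, a log2 difference of -0.95 ± 0.25 (adjusted p = 0.0862). Mmp3 was 4.14, 6.06, 37.1 and 1.05 CPM in WT and 0.696 to 1.57 CPM in KO (adjusted p = 0.0659), and WT TN library 8 stood far above the other libraries. Timp4 was 371 ± 57.2 CPM in KO and 201 ± 95 CPM in WT (log2 difference 0.89 ± 0.26, adjusted p = 0.121). Without WT TN library 23 the edgeR count was 3 (Timp4, Mmp2 and Mmp3), and without WT TN library 8 it was 1. Counts over all genes in those fits are not given here.

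**Figure D4:**
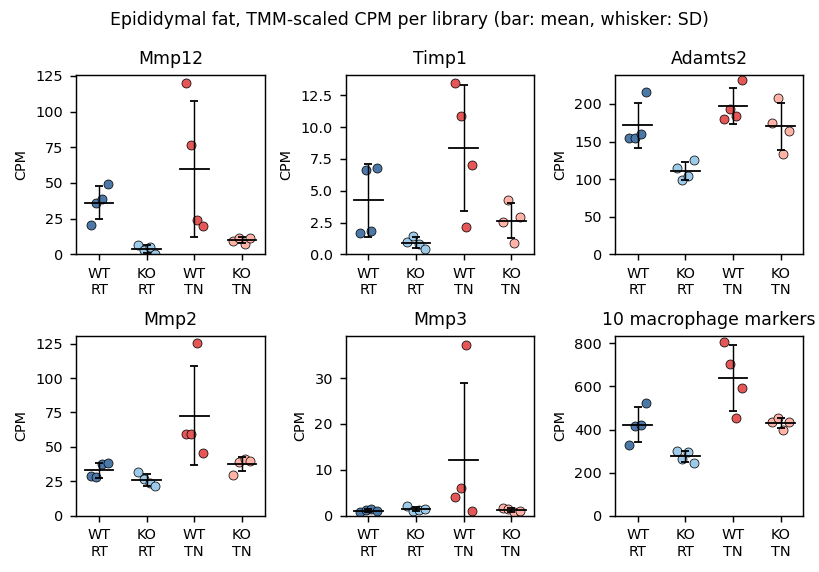
CPM per library in eWAT for 5 genes and the summed macrophage markers, by genotype and housing (points, 4 libraries a group; bars, mean; whiskers, SD). Mmp12 is lower in every KO library than in every WT library at the same housing, and 1 WT TN library (37.1 CPM of Mmp3) stands far above the rest.

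Macrophage markers moved with the eWAT genotype comparison at RT. There 4 of 10 were called lower in KO, with sums of 327 to 524 CPM in WT and 244 to 299 CPM in KO. At TN 0 of 10 were called, with overlapping sums of 452 to 807 CPM in WT and 399 to 453 CPM in KO. Of 8 fibroblast and progenitor markers 0 were called at RT. Their sums lay the other way with overlap, at 7611 to 11064 CPM in WT and 10982 to 13403 CPM in KO. No macrophage marker was at 0 in any eWAT group. The part of these markers in the Mmp12 and Adamts2 differences was not tested. Of the 45 partner genes tested in eWAT, 10 were lower in KO at RT and 0 higher, against 4.34% of all genes called. Adamtsl2, an ADAMTS-like protein without protease activity, was at 14.2 ± 1.94 CPM (SD, n = 4) for WT and 2.89 ± 1.24 CPM for KO (log2 difference -2.29 ± 0.40, adjusted p = 0.00574). The procollagen-processing genes Pcolce2 and Bmp1 differed by -2.26 and -0.64 and the basement membrane collagens Col4a1 and Col4a2 by -0.84 and -0.97. At TN 4 partners were lower in KO (Adam12, Lox, Bgn and Cd44, background 0.586%).

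Housing gave little in eWAT. In WT 0 of 35 genes were called at TN against RT (edgeR, background 0%, and 6 at an unadjusted p under 0.05 against 6.99% of all genes, 3 by DESeq2). Of all genes, DESeq2 called 95. Mmp2 was 28.9, 28, 37.5 and 38 CPM at RT and 59.4, 59.5, 126 and 45.5 CPM at TN, without overlap (log2 change 1.13 ± 0.25, adjusted p = 0.178, and 0.00159 by DESeq2). In KO 1 of 35 was called, Adamts2, which rose from 111 ± 11.5 to 170 ± 31 CPM (0.62 ± 0.14, adjusted p = 0.0356, background 1.74%, 1.02% rising and 0.718% falling). That call was lost in 10 alternatives, among them leaving out any 1 of KO TN libraries 3, 4 and 21 or KO RT libraries 9, 10 and 19, with an adjusted p of up to 0.134. Timp2 in KO was 276 ± 61.7 CPM at RT and 404 ± 45.1 CPM at TN (0.55 ± 0.14, adjusted p = 0.0545). Adamts5, the ADAMTS gene highest in eWAT, was 554 ± 58.8 CPM in WT against 474 ± 44 in KO at RT and 667 ± 76.1 and 636 ± 188 CPM at TN, and was not called in any eWAT comparison with all libraries. Without KO TN library 5 it was called higher at TN in KO (adjusted p = 0.0316). The other genes named for BAT were called in no eWAT comparison by edgeR: Timp3 averaged 186 to 246 CPM over the 4 groups, Mmp19 71.1 to 82.2, Mmp14 35.3 to 51.7, Adamts9 31.7 to 36.1, Mmp15 14.7 to 19.2, Adamts4 1.14 to 1.92 and Mmp13 0.277 to 0.952 CPM. Adamts1 spread widely in KO, from 21.6 to 106 CPM at RT and 55.9 to 135 CPM at TN. Mmp7 was at 0 counts in all 4 WT RT libraries and reached 44 CPM in KO TN library 21 and 4.79 CPM in KO TN library 4, with the other 2 KO TN libraries at 0. Of the 45 partners, 6 rose in KO (background 1.74%), led by Col1a1 at 1.33 ± 0.29 and Col1a2 at 1.15 ± 0.17 on the log2 scale (adjusted p = 0.0388 and 0.0129). In the same comparison 2 of 10 macrophage markers were called higher at TN, with sums of 244 to 299 CPM at RT and 399 to 453 CPM at TN, and 1 of 8 fibroblast and progenitor markers was called higher with overlapping sums. Hepatocyte marker sums were 2493 to 6667 CPM at RT and 989 to 2093 CPM at TN, with none called. The part of these markers in the Adamts2 result was not tested. The interaction was called for 0 of 35 genes (edgeR, background 0%, 6 unadjusted against 7.60%, 0 by DESeq2).

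In liver none of the 30 tested genes was called in any of the 5 comparisons. By edgeR 1 gene had an unadjusted p under 0.05 between genotypes at RT, 4 at TN, 2 between housings in WT, 9 between housings in KO and 0 for the interaction, and DESeq2 called 0 in each. In the same order, the shares of all genes called were 0.0853%, 3.18%, 0.0227%, 0.114% and 0%, and those with an unadjusted p under 0.05 were 10.2%, 17.6%, 7.25%, 10.5% and 7.33%. Mmp19, the highest member per length in liver, was 83.4, 116, 96.4 and 66.3 CPM in WT and 88.2, 87.5, 54.6 and 61 CPM in KO at RT, and 91.5, 84.9, 61.6 and 73 CPM and 65.8, 54.3, 67.5 and 49.3 CPM at TN. The groups overlapped at both temperatures (log2 difference at TN -0.39 ± 0.18, adjusted p = 0.26). Mmp15 at TN was 45.9 ± 2.3 CPM in WT against 33.4 ± 6.38 in KO, without overlap, and had the lowest adjusted p of the genotype comparisons at 0.0967 (log2 difference -0.46 ± 0.15).

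Mmp12 was uneven between liver libraries of 1 group. It was 3.65, 0.551, 8.05 and 0.688 CPM in WT at RT, 0, 0.452, 0 and 1.15 CPM in KO at RT, 2.32, 4.29, 5.38 and 1.47 CPM in WT at TN, and 1.79, 2.15, 7.86 and 1.59 CPM in KO at TN. KO at RT against WT at RT gave -3.04 ± 1.17 on the log2 scale (adjusted p = 0.376). Timp1 had 0 counts in all 4 KO RT libraries and 10 to 15 counts in the KO TN libraries, 3.42-fold higher against a floor of 3 counts a library (adjusted p = 0.238). Timp3 in KO was 21.9 ± 6.56 CPM at RT and 38.4 ± 10.1 CPM at TN (0.81 ± 0.25, adjusted p = 0.192). Adamts13 in KO was 5.12 ± 1.63 CPM at RT and 8.27 ± 0.575 CPM at TN (0.69 ± 0.28, adjusted p = 0.343). The genes named for the fat depots were not called in liver either. Mmp14 averaged 24.6 to 30.9 CPM over the 4 liver groups, Timp2 10.3 to 15.1, Adamts1 6.79 to 11.9, Adamts2 3 to 7.09, Mmp2 1.68 to 3.98, Adamts9 1.53 to 2.93 and Adamts5 1.05 to 2.38 CPM. Mmp9, Mmp13 and Adamts4 stayed under 1 CPM in each group mean. The median log2 change of the 30 genes between housings in KO was 0.823 and that of all genes 0.006, with 24 of 30 positive and none called. In WT these medians were 0.268 and 0.007, also with 24 of 30 positive and none called. In the KO comparison no marker was called, but fibroblast and progenitor sums were 218 to 263 CPM at RT and 269 to 406 CPM at TN. Neutrophil sums there were 3.68 to 5.15 and 6.82 to 12.8 CPM. Skeletal muscle sums were 0.708 to 1.39 and 1.46 to 2.41 CPM, also without overlap. The part of these markers was not tested. Of 42 partners tested, 2 were lower in KO at TN: Pcsk6, a proprotein convertase, at 73 ± 4.67 against 149 ± 23.1 CPM (-1.03 ± 0.15, adjusted p = 0.00147), and Adam9 (-0.52 ± 0.14, adjusted p = 0.0458). The only partner that rose at TN in KO was Col4a1 (0.90 ± 0.15, adjusted p = 0.0284).

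Whether an effect differed among the 3 tissues was tested in 1 fit of all 48 libraries. The housing effect in WT differed for 7 of 40 genes (Timp4, Mmp12, Mmp14, Mmp19, Adamts1, Adamts2 and Adamts9), or 17.5% against 15.0% of all genes, a share near the background. For Mmp14 the log2 change in WT was 1.68 in BAT and 0.37 in eWAT, and for Timp4 1.13 in BAT and -0.30 in eWAT. Their adjusted p (0.0146 and 0.0288, quasi-likelihood F test) is for a difference among all 3 tissues, not for BAT against eWAT. In WT liver Mmp14 was 24.6 ± 4.59 CPM at RT and 30.5 ± 9.1 CPM at TN (SD, n = 4). Timp4 had 0 counts in liver, so liver gave no Timp4 change to compare. With the animal as a block 3 genes were called, beside 1714 of all genes where 3292 were called without it. Of the 7 named, Timp4 and Mmp14 kept their call with the block (adjusted p = 0.00563 and 0.0021). Unblocked, both calls were lost without BAT WT TN library 1 (adjusted p = 0.0988 and 0.0615) or without BAT WT RT library 18. The Timp4 call was lost in 7 alternatives, and that of Adamts2 only with the block (0.0644). The unblocked count was 1 without BAT WT TN library 1 and 11 without BAT WT TN library 24. Counts over all genes in those fits are not given here. In KO 1 of 40 differed, Adamts12 (adjusted p = 0.0438, background 4.06%), and with the block it was not called (0.0893). The genotype effect differed among tissues for 0 of 40 genes at RT (edgeR, background 2.06%, 5 unadjusted against 18.4%, 0 by DESeq2) and for 0 at TN (background 0.904%, 4 unadjusted against 14.4%, 0 by DESeq2).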

How the data were processed

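All values start from the integer counts of reads on each gene that the authors deposited for every library, without normalization. Per the submitters' processing notes the tools were fastp, STAR 2.6.1d and featureCounts 1.5.0-p3 with GRCm38 (mm10). The annotation and the strand setting are not given in the sources used here. Per the labels' protocols, libraries were paired-end and made with a NEBNext Ultra kit. Of the counts from 1 to 20, 75.4% were even in liver, 74.9% in BAT and 76.1% in eWAT, so the counts do not behave as single independent reads. Floors of 3 counts assume independent counts and cover counting error at most, so folds against them may be overstated. Of 56748 identifiers, 52073 (91.76%) had a symbol in the reference table, and named genes held at least 94.85% of each library.

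Each tissue was fitted over its 16 libraries with edgeR 4.0.16 in R 4.3.3 (TMM, filterByExpr with a minimum count of 10, robust quasi-likelihood F tests, 1 mean per group), and tissues were compared in 1 fit of all 48. P values are two-sided, adjusted by Benjamini-Hochberg over all genes of a fit, with a threshold of 0.05. DESeq2 1.42.0 was the alternative tool. The scripts were tested on simulated data. Tissues of 1 animal share its number, which is where the pairing comes from. Over 35 same-animal pairs the correlation of deviations from group means ran from -0.18 to 0.11. Libraries of a group came from different numbered animals. The genes and the marker and partner lists were chosen with earlier results of these data known. Named are a fixed set of 18 genes, up to 5 called genes per direction with a mean of at least 1 CPM, the 3 highest and 3 lowest in each tissue comparison, and genes at 0. Mmp28, Adamts3, Adamts12, Adamts14 and Adamts17 (with Adamts7 in BAT) were added after their values were seen.

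Marker lists for B cells, hepatic stellate cells, mesothelium, adipocytes and hepatocytes were also summed. In BAT at TN, 2 of 8 stellate markers were called higher and 2 of 6 adipocyte markers lower in WT. For B cells, mesothelium and hepatocytes, 0 were called in the housing comparisons of BAT or the genotype comparisons of eWAT, and the same held for neutrophil, epididymis and skeletal muscle markers.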

Additional observations from a re-analysis of the deposited data

Results flagged for a closer look

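In 15 of 188 groups of 4 libraries, 1 library lay apart from the other 3 (a gap above Dixon's 95% critical value for 4 samples); chance gives about 1 in 20, or 9.4. In liver these were Mmp12 at 7.86 CPM in KO TN library 5 and Adamts13 at 2.69 CPM in KO RT library 9. In BAT they were Timp4 at 169 CPM in WT TN library 1, Mmp12 at 15.5 CPM in WT TN library 6, Mmp19 at 60.7 CPM in KO RT library 10 and at 47.7 CPM in WT TN library 24, Adamts4 at 1.29 CPM in WT RT library 12, and Adamts9 at 65.3 CPM in KO TN library 2. In eWAT, WT TN library 8 stood apart for Timp3 (318 CPM), Mmp3 (37.1 CPM), Mmp15 (18.4 CPM) and Mmp19 (63 CPM). The others in eWAT were Timp2 at 472 CPM in KO TN library 4, Adamts2 at 216 CPM in WT RT library 18 and Adamts4 at 2.44 CPM in KO RT library 9. BAT WT TN libraries 6 and 24 and KO TN library 2 are among those rich in skeletal muscle markers, whose part in these values was not tested.

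Without a block for the animal, the housing effect in WT differed among the 3 tissues (edgeR's quasi-likelihood F test, Benjamini-Hochberg adjusted p) for Adamts2 (0.014), Mmp14 (0.0146), Timp4 (0.0288), Adamts1 (0.0359), Adamts9 (0.0388), Mmp12 (0.0437) and Mmp19 (0.0463). In KO it differed for Adamts12 (0.0438). These shares, 7 and 1 of 40 genes, stand beside 15.0% and 4.06% of all genes. Tissues share animals, and with the animal as a block Timp4 (0.00563) and Mmp14 (0.0021) were called. With the block Mmp19 (0.0583), Adamts2 (0.0644), Adamts9 (0.156), Adamts1 (0.386), Mmp12 (0.422) and, in KO, Adamts12 (0.0893) were not. Without the block, Timp4 and Mmp14 were not called when BAT WT TN library 1 was left out (0.0988 and 0.0615). The Adamts2 call was lost in no alternative other than the block.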

How the results depend on the processing

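No result changed direction, and the 5 liver comparisons, the interactions in each tissue, the genotype comparison in BAT at TN and the tissue differences of the genotype effect at TN stayed at 0 calls in every alternative run. The counts over tissues and the BAT housing count in WT stayed within 1.5 times under other scaling, filters and DESeq2. With DESeq2 the count of called genes was 1 for genotype in BAT at RT, 5 and 4 for genotype in eWAT at RT and TN, 3 for housing in eWAT in WT and 3 in KO, and 12 and 2 for the tissue differences of the housing effect in WT and KO. Over all genes DESeq2 called 961, 1501, 680, 95, 1150, 4231 and 1787 in the same order, where edgeR called 16, 821, 111, 0, 330, 3292 and 889. Without a filter on low counts the counts among the genes described here were 2 for housing in eWAT of KO, and 3 and 0 for the tissue differences. Of all genes, that setting called 273, 2696 and 698. With only the 8 libraries compared, genotype in eWAT at RT gave 1 and housing in eWAT of KO gave 0. Of all genes, that setting called 595 and 0, where the fit of 16 libraries called 821 and 330. With the replicate block the tissue differences of the housing effect gave 3 in WT and 0 in KO. BAT against liver gave 33, eWAT against liver 32 and BAT against eWAT 22. Of all genes, the block called 1714, 312, 13875, 14409 and 11104 in the same order. No block applies within a tissue, where groups share no animals. Without the muscle-rich BAT libraries, a choice made after seeing the data, genotype at RT gave 2 and housing in KO 5, from fewer samples. Of all genes, that setting called 434 and 1293. Causes of the other shifts were not tested.

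Leaving out 1 library at a time, counts ran from 14 to 19 for BAT housing in WT and from 8 to 15 in KO, from 0 to 5 for BAT genotype at RT (5 without WT RT library 12), from 0 to 3 for eWAT genotype at RT, from 0 to 3 at TN, and from 0 to 3 for eWAT housing in KO. They ran from 33 to 35 for BAT against liver, 32 to 33 for eWAT against liver and 27 to 30 for BAT against eWAT. For tissue differences they ran from 1 to 11 for housing in WT, 0 to 1 for housing in KO and 0 to 1 for genotype at RT (1 without BAT WT RT library 12). Counts over all genes in the fits without 1 library are not given here, so these shifts are not shown to be particular to the genes described. Calls in genes under 1 CPM, such as Timp1 and Adamts17 in BAT, rest on few counts a library.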
